A study of Mus musculus with 4 samples.

Results

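The deiodinases Dio1, Dio2 and Dio3, the thyroid hormone receptors Thra and Thrb and the transporter Slc16a10 were followed across interscapular brown adipose tissue (iBAT) and epididymal white adipose tissue (eWAT) of wild-type (WT) and ASK1-deficient (ASK1KO) mice. ASK1 is a stress-activated kinase encoded by Map3k5. The members were all probes that the array files name as 1 of these 6 genes. This gave 12 of 55681 probes, and 6 of the 22066 genes that were matched to RefSeq. Of the 12 probes, 9 were well above background on all 4 arrays and 1 on none.

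RNA of male mice aged 10 weeks, kept under normal conditions, was pooled from 3 mice for each genotype and tissue and hybridized to 1 one-colour Agilent array, so that there were 4 arrays and no replicate of a condition. The strain used by the laboratory was C57BL/6 J, the ASK1 gene was lost in the whole body, and WT and ASK1KO mice were bred separately. Differences between these breeding lines and effects of the deletion cannot be told apart. How far single mice vary cannot be seen on these arrays, which allowed no test within a tissue. Apart from the arrays, the paper reports lower Dio2 in ASK1-deficient iBAT by quantitative RT-PCR. Map3k5 was checked first. Its probe A_52_P656714 read 448 in WT iBAT, 117 in ASK1KO iBAT, 701 in WT eWAT and 194 in ASK1KO eWAT, so that it was lower on the arrays labelled ASK1KO, with a scaled log2 ratio of -2.0 for iBAT and -1.76 for eWAT. Its other probe, A_55_P2079967, read 1081, 1082, 1264 and 836 in that order and did not separate the genotypes in iBAT.

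Thyroid hormone is secreted mainly as the prohormone T4. Dio1 and Dio2 are selenocysteine enzymes that convert T4 to the active hormone T3, and Dio3 inactivates both. In brown fat, noradrenaline raises Dio2 through cAMP, and the T3 made locally acts through the nuclear receptors encoded by Thra and Thrb, together with cAMP, on thermogenic genes such as Ucp1. Slc16a10 encodes MCT10, a membrane carrier of thyroid hormones and aromatic amino acids.

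The promoter of Dio2 is shown because Dio2 is the member on which the results turn, and because genes induced by cAMP were examined beside it. The sequence is the 250 bases before the RefSeq start on the minus strand, chr12:90739039-90739288 of GRCm38.p6. Capitals mark the cAMP response element TGACGTCA, whose first base lies 95 bases before the start, and the TATA box TATAAAA, whose first base lies 30 bases before it.
Dio2 promoter: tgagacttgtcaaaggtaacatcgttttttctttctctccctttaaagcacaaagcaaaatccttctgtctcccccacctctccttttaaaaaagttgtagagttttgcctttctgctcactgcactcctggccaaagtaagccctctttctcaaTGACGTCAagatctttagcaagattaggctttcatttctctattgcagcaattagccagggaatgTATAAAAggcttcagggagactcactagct
TGACGTCA reads the same on both strands and was found in 1.55% of 32851 promoter windows of 250 bases. TATAAAA, searched on the gene's strand, was found in 3.02% of them, among them 1 of the 2 Thrb windows, 167 bases before its start. Neither of the Thrb windows held TGACGTCA, nor did those of Dio1, Dio3 and Slc16a10, and Thra had no entry in the table. The half-site TGACG, searched on both strands, was found in 17.8% of windows, among them the other Thrb window, where it lies 56 bases before the start. In Dio2 its only matches lie within TGACGTCA. The thyroid hormone response half-site AGGTCA, on either strand, was found in 14% of windows and, among the members, only in that same Thrb window, 184 bases before the start. These matches describe letters only.

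Values are the processed signal of the scanner software, an intensity in arbitrary units. For comparisons between arrays, the 75th percentile of each array was subtracted on the log2 scale. This percentile was 356 in WT iBAT, 371 in ASK1KO iBAT, 673 in WT eWAT and 634 in ASK1KO eWAT. The error given after a log2 ratio is the error of the 2 signals in the scanner's own error model and holds no variation between mice. Over probes spotted at least 5 times, the SD of the log2 ratio between the iBAT arrays had a median of 0.087 over 276 probes, and between the eWAT arrays 0.060 over 292. Signals are compared between arrays for 1 probe and never between probes.

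**Figure D1:**
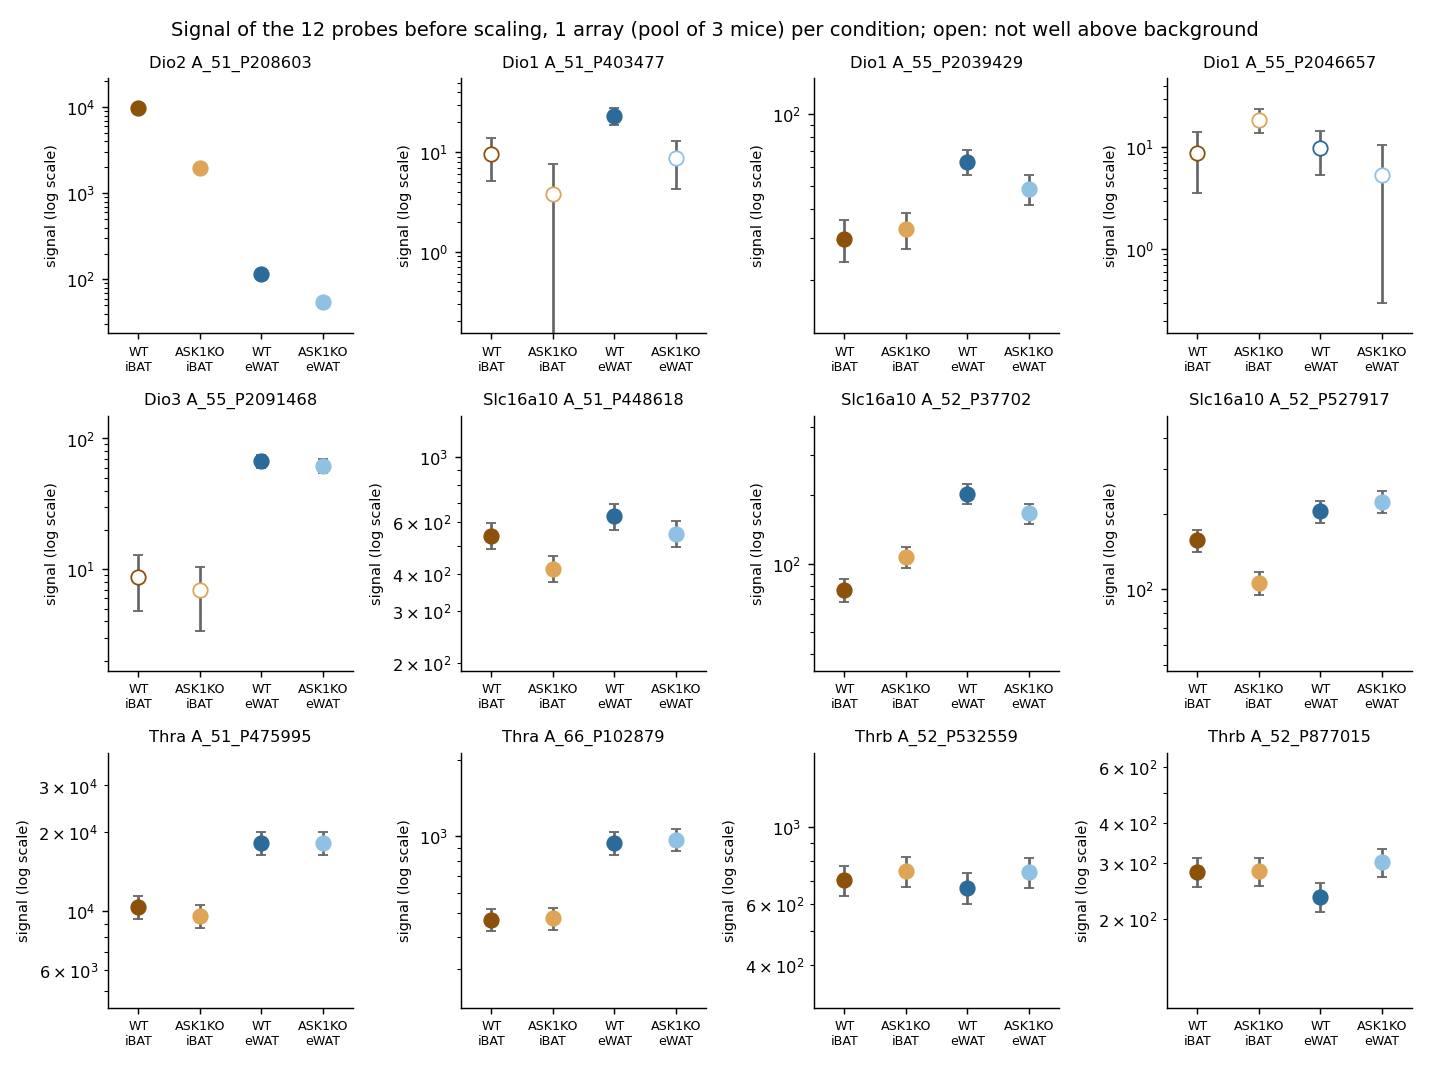
Processed signal (log axis, arbitrary units, before scaling between arrays) of the 12 probes on the 4 arrays, 1 array per condition, with the scanner's error as bars. Open circles were not well above background. Dio2 ran from 9820 in WT iBAT down to 54.0 in ASK1KO eWAT, while the eWAT arrays were brighter overall than the iBAT arrays.

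Dio2 was the only member that differed at least 2-fold between the genotypes, and it was lower in ASK1KO mice in both tissues. Its probe, A_51_P208603 at chr12:91963235-91963294 of mm9, gave a signal of 9820 in WT iBAT, 1978 in ASK1KO iBAT, 117 in WT eWAT and 54.0 in ASK1KO eWAT. The signal was thus high in WT iBAT, intermediate in ASK1KO iBAT and low in both eWAT samples. After scaling, Dio2 was 5.18-fold lower in ASK1KO than in WT iBAT, a log2 ratio of -2.37 ± 0.20 (scanner error). In eWAT it was 2.03-fold lower, a log2 ratio of -1.02 ± 0.24. All 3 steps in the order of its levels were larger than 2 scanner errors.

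Among the members measured on both iBAT arrays, 1 of 5 genes was at least 2-fold apart, beside 1.85% of all 14377 genes measured. In eWAT it was 1 of 6, beside 1.15% of 15377. Only 0.0282% of the probes measured in iBAT, and 0.618% of those in eWAT, had a lower ratio than Dio2. A reduction of at least 2-fold in both tissues was found for 10 of 14059 genes, or 0.0711%, Dio2 among them. With normexp background correction the eWAT ratio of Dio2 was -0.56, so that 2-fold was not reached. With the authors' series table it was -0.999, only just short of 2-fold. The ratio that the paper's supplement prints for Dio2 in eWAT lies beyond 2-fold. The iBAT ratio lay between -2.46 and -2.19 under all settings tried.

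Over both tissues together, the genotype effect on Dio2 was -1.70 ± 0.31 on the log2 scale (SE, limma, 95% confidence interval from -2.44 to -0.96). Among 27613 probes 20 had a lower value. With 1 residual degree of freedom the effect did not pass the adjustment over all probes (unadjusted p = 0.00125, adjusted p = 0.412, limma). Over its other settings the adjusted p lay between 0.00223 and 0.943. It passed only when arrays were centred on their medians (adjusted p = 0.00223), a setting chosen after seeing the data. No probe of the array passed for genotype in the main fit (0% of 27613, with 1789 or 6.48% at an unadjusted p under 0.05), and 139 did with median centring. The adjusted p of the other members was between 0.886 and 0.988 in the main fit. Whether the effect on Dio2 differed between iBAT and eWAT was not tested, since this difference is the residual of the fit.

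**Figure D2:**
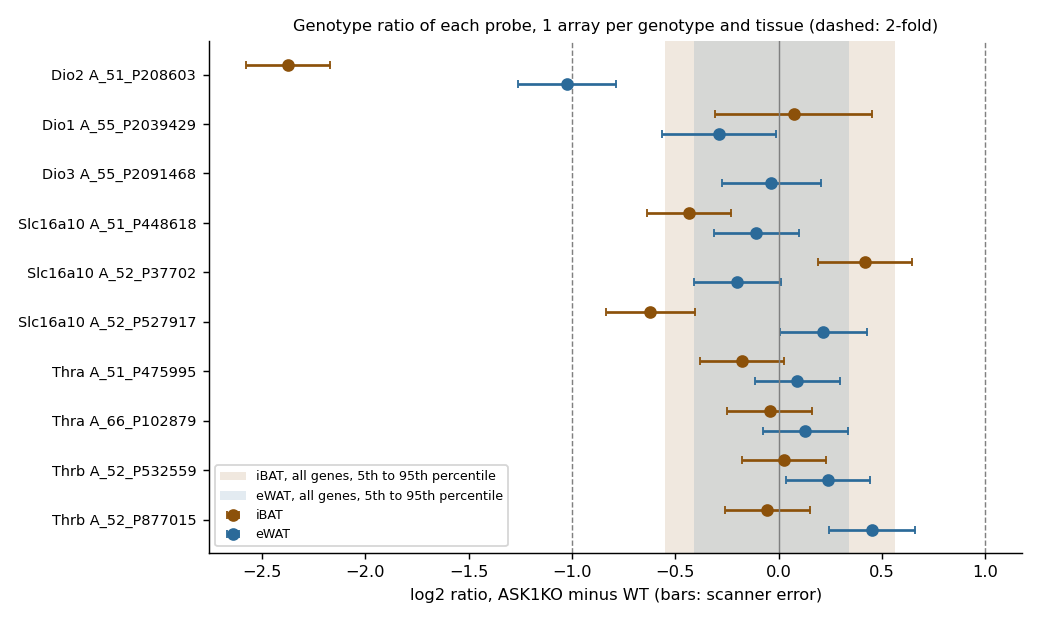
Log2 ratio, ASK1KO minus WT, of each member probe well above background on both arrays of at least 1 tissue (brown, iBAT; blue, eWAT), with the scanner's error as bars. Shading spans the 5th to 95th percentile of all genes, -0.55 to 0.56 in iBAT and -0.41 to 0.34 in eWAT. Dio2 lies outside it in both tissues, at -2.37 and -1.02.

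Markers of cell types were read on the same arrays. In iBAT the summed signal (before scaling) of 11 brown adipocyte markers was 1404770 in WT and 1238450 in ASK1KO mice. Of these 11, 1 was at least 2-fold lower, Elovl3, an elongase of very long fatty acids, at -4.10 (log2 ratio), and the median log2 ratio was -0.18. The 6 skeletal muscle markers gave 165369 and 173191, with a median of 0.17 and none 2-fold apart. All 6 macrophage markers were above 0 in iBAT, with a median of 0.53 and none 2-fold apart. Of 12 hepatocyte markers 7 were well above background in WT iBAT and 12 in ASK1KO iBAT. The 7 measured on both arrays had a median of 0.011 with none 2-fold apart, but Alb, which encodes serum albumin, was at least 5.62-fold higher in ASK1KO iBAT, Ahsg at least 5.23-fold and Ambp at least 2.75-fold. The part of these cell types in the Dio2 ratio of iBAT was not tested.

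In eWAT the brown adipocyte markers were mixed. Of the 9 measured on both arrays 5 were below 0 and 4 above, with a median log2 ratio of -0.11, and 2 were at least 2-fold lower. These were Ucp1, the uncoupling protein of brown fat, at -4.63 and Cidea, a lipid droplet protein, at -2.23 (log2 ratios). The summed signal of the list, to which these bright genes add most, was 39077 in WT and 16633 in ASK1KO eWAT. Muscle markers also had a lower sum, 2762 against 5725 in WT. Of 9 hepatocyte markers measured, 6 were at least 2-fold lower, none was above 0 and the median was -2.91. With probes required on all 4 arrays this median was -1.52, and with the brightest probe of each gene -1.88. Their part in the Dio2 ratio of eWAT was not tested. In pooled tissue RNA, fewer cells of a type and less RNA per cell cannot be told apart.

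Dio2 was far higher in iBAT than in eWAT in both genotypes. After scaling it was 159-fold higher in iBAT in WT mice and 62.6-fold higher in ASK1KO mice, log2 differences of 7.32 and 5.97. Over all settings the difference ran from 6.40 without scaling to 7.35 with the series table in WT mice, and from 4.81 with normexp to 5.97 in ASK1KO mice. Over both genotypes the tissue effect was 6.64 ± 0.31 on the log2 scale (SE, limma, 95% confidence interval from 5.90 to 7.38, adjusted p = 3.96e-05). This SE, like that of every limma effect here, rests on 1 residual degree of freedom and on variance borrowed from all probes. It does not measure variation between single mice. Only 31 of 27613 probes had a larger tissue effect. Among the 9 member probes tested, 4 passed for tissue, or 44.4%, beside 53.5% of all probes, so that a tissue difference as such does not set the members apart. The labels were borne out by the markers. The 9 brown adipocyte markers measured on both ASK1-deficient arrays were all above 0 for iBAT over eWAT, 7 of them at least 2-fold in both genotypes. Their medians were 4.60 in WT and 4.61 in ASK1KO mice. With Elovl3, which was also measured in WT mice, the WT median was 5.10 over 10 markers. The skeletal muscle markers went the same way by more, with medians of 6.92 over 5 genes in WT and 6.84 over 4 in ASK1KO mice, and Myh4, a fast myosin heavy chain, at 10.1 and 10.9 (log2 differences). Their part in the Dio2 difference between the tissues was not tested.

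The genes whose pattern over the 4 arrays was most like that of Dio2 were Acot11, Car14, Aspg, Otop1 and S100b. They were ranked by Euclidean distance of gene-centred log2 levels among 20000 gene names of the array, some without a RefSeq symbol. Acot11 encodes a long-chain acyl-CoA thioesterase that is induced by cold in brown fat. It was nearest, at a distance of 0.62, with log2 ratios between genotypes of -1.52 in iBAT and -1.03 in eWAT and a log2 difference between WT tissues of 7.02. Car14, a membrane carbonic anhydrase, followed at 1.27, Aspg, an asparaginase, at 1.33, Otop1, a proton channel, at 1.39 and S100b, a calcium-binding protein, at 1.43. The pattern is dominated by the gap between the tissues, and these distances rest on 4 arrays alone.

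**Figure D3:**
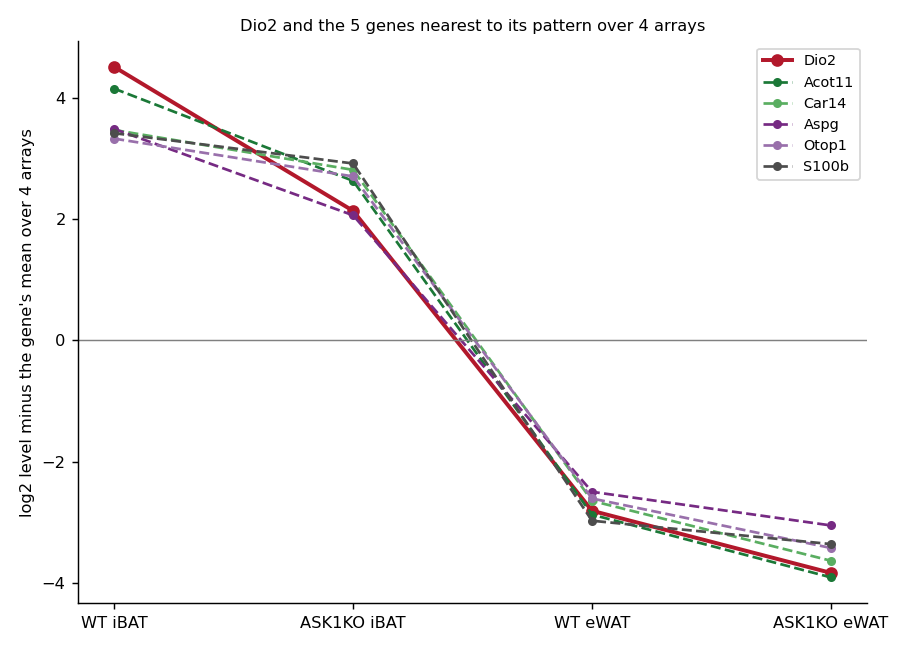
Log2 level minus the gene's own mean over the 4 arrays (y axis) on each array (x axis), for Dio2 (solid) and the 5 genes nearest to its pattern (dashed). All are high in iBAT and low in eWAT, and Acot11, at a distance of 0.62, follows Dio2 most closely.

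Dio1, the T4-activating enzyme best known from liver, kidney and thyroid, was at most weakly detected, and its 3 probes differed. Probe A_55_P2039429 at chr4:106979388-106979447 was well above background on all arrays. Its signal was 29.8 in WT iBAT, 32.7 in ASK1KO iBAT, 63.0 in WT eWAT and 48.5 in ASK1KO eWAT. Its signals were low throughout, and no neighbours in the order of its scaled levels were more than 2 scanner errors apart. The log2 ratio between genotypes was 0.07 ± 0.38 in iBAT and -0.29 ± 0.27 in eWAT.

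Probe A_51_P403477 at chr4:106964052-106964088 gave 9.55 in WT iBAT, 3.78 in ASK1KO iBAT, 23.2 in WT eWAT and 8.70 in ASK1KO eWAT. WT eWAT was the only array on which it stood well above background, and there it was at least 1.05-fold higher than in ASK1KO eWAT, a bound set by the lowest signal well above background. WT eWAT was also the array on which Alb was brightest, at 3234 against 158 in ASK1KO eWAT, 115 in ASK1KO iBAT and 7.50 in WT iBAT, the last not well above background. Liver expresses Dio1, and the part of such RNA in its signal was not tested. Probe A_55_P2046657 at chr4:106964935-106964994 read 8.82, 18.7, 9.94 and 5.37 on the arrays in the same order and was not well above background on any. Detection of Dio1 in iBAT therefore rests on 1 of 3 probes. The probe that gave a signal on every array and the one that gave none on any are shown as deposited. Capitals mark a stop triplet at the 3′ end of the latter.
A_55_P2039429: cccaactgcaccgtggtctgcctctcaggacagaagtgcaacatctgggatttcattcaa
A_55_P2046657: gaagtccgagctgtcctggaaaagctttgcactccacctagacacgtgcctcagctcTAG

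Dio3, the inactivating deiodinase, was detected in eWAT and not in iBAT. Its probe A_55_P2091468 at chr12:111518792-111518851 read 8.80 in WT iBAT and 6.90 in ASK1KO iBAT, both not well above background. It read 67.1 in WT eWAT and 61.7 in ASK1KO eWAT. Against the lowest level well above background in iBAT, Dio3 was at least 1.80-fold higher in eWAT in WT mice and at least 2.09-fold higher in ASK1KO mice. Between the genotypes its log2 ratio in eWAT was -0.035 ± 0.24. The activating enzyme Dio2 and the inactivating enzyme Dio3 thus had their higher signals in opposite tissues.

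Slc16a10, the transporter, was measured by 3 probes that differed. Probe A_51_P448618 at chr10:39756480-39756539, designed on RefSeq transcript variant 1, read 540 in WT iBAT, 418 in ASK1KO iBAT, 628 in WT eWAT and 548 in ASK1KO eWAT. Probe A_52_P527917 at chr10:39795726-39795785, designed on variant 2, read 156, 106, 204 and 223 in that order. Probe A_52_P37702 at chr10:39852910-39852969 read 76.8, 107, 204 and 167. In iBAT the first 2 were lower in ASK1KO mice and the third higher, though with normexp the log2 ratio of the third was only 0.08.

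The log2 ratios of these probes in iBAT were -0.43 ± 0.21, -0.62 ± 0.22 and 0.42 ± 0.23. In eWAT they were -0.11 ± 0.20, 0.22 ± 0.21 and -0.20 ± 0.21. None reached 2-fold, and the mean over the 3 probes was -0.21 in iBAT and -0.031 in eWAT. Slc16a10 lies on chromosome 10, as does Map3k5, with 19.9 Mb between the probes. Whether the flanks of the targeted locus bear on these ratios was not tested.

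Neither receptor differed 2-fold between the genotypes. Thra was read by A_51_P475995 at chr11:98626356-98626415, with 10407 in WT iBAT, 9594 in ASK1KO iBAT, 18109 in WT eWAT and 18150 in ASK1KO eWAT. A_66_P102879, also of Thra, at chr11:98617475-98618281, read 470, 476, 942 and 970 in that order. Both were close between genotypes within a tissue. Their log2 ratios were -0.18 ± 0.20 and -0.044 ± 0.21 in iBAT, and 0.09 ± 0.20 and 0.13 ± 0.20 in eWAT. No neighbouring scaled levels of Thra were more than 2 scanner errors apart.

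Thrb was read by A_52_P532559 at chr14:18868800-18868859, with 703 in WT iBAT, 747 in ASK1KO iBAT, 669 in WT eWAT and 742 in ASK1KO eWAT. A_52_P877015 of Thrb, at chr14:18869432-18869491, read 282, 283, 235 and 303. In iBAT the log2 ratios were 0.03 ± 0.20 and -0.055 ± 0.21. In eWAT both were above 0, at 0.24 ± 0.20 and 0.45 ± 0.21. The latter was more than 2 scanner errors from 0 and below 2-fold, and 95.6% of the probes measured in eWAT had a lower ratio. The gene mean of Thrb in eWAT, 0.344, lay just above the 95th percentile of all genes, 0.338.

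Between the tissues, Thrb was higher in iBAT after scaling and Thra was not. The tissue effect on Thrb over both genotypes was 0.89 ± 0.15 for the first probe and 0.93 ± 0.18 for the second (log2, SE, limma, adjusted p = 0.00387 and 0.00577). For Thra it was -0.014 (adjusted p = 0.948, limma) and -0.17 (adjusted p = 0.381, limma, 95% confidence interval from -0.53 to 0.20). Of the Slc16a10 probes, A_51_P448618 was higher in iBAT by 0.54 ± 0.16 (adjusted p = 0.0296, limma), and A_52_P527917 and A_52_P37702 did not pass, at 0.12 and -0.18 (adjusted p = 0.686 and 0.464, limma). With probes required on only 1 array, the second Thrb probe (adjusted p = 0.0511, limma) and A_51_P448618 (adjusted p = 0.0985, limma) did not pass. Dio1 was at 0.021 (adjusted p = 0.926, limma, 95% confidence interval from -0.38 to 0.42).

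The tissue effects are relative to the brightness of the arrays. The eWAT arrays were brighter, and without scaling the median log2 difference of all genes, iBAT minus eWAT, moved from 0.12 to -0.80 in WT and from 0.026 to -0.75 in ASK1KO mice. Without scaling, Thrb was at 0.041 and 0.084 and did not pass (adjusted p = 0.797 and 0.647, limma), and Thra was lower in iBAT at -0.86 and -1.01 (adjusted p = 0.00391 and 0.00231, limma). Under the same setting Slc16a10 was at -0.31, -0.73 and -1.02 for A_51_P448618, A_52_P527917 and A_52_P37702. The last 2 then passed as lower in iBAT (adjusted p = 0.0254 and 0.0104, limma), and A_51_P448618 no longer passed as higher (adjusted p = 0.101, limma). Dio1, at -0.83, also passed as lower in iBAT (adjusted p = 0.0103, limma), whereas with normexp it passed as higher, at 0.43 (adjusted p = 0.0128, limma). The effect on Dio2 moved by the same shift, to 5.80 without scaling, and still passed, as it did under every scaling tried.

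**Figure D4:**
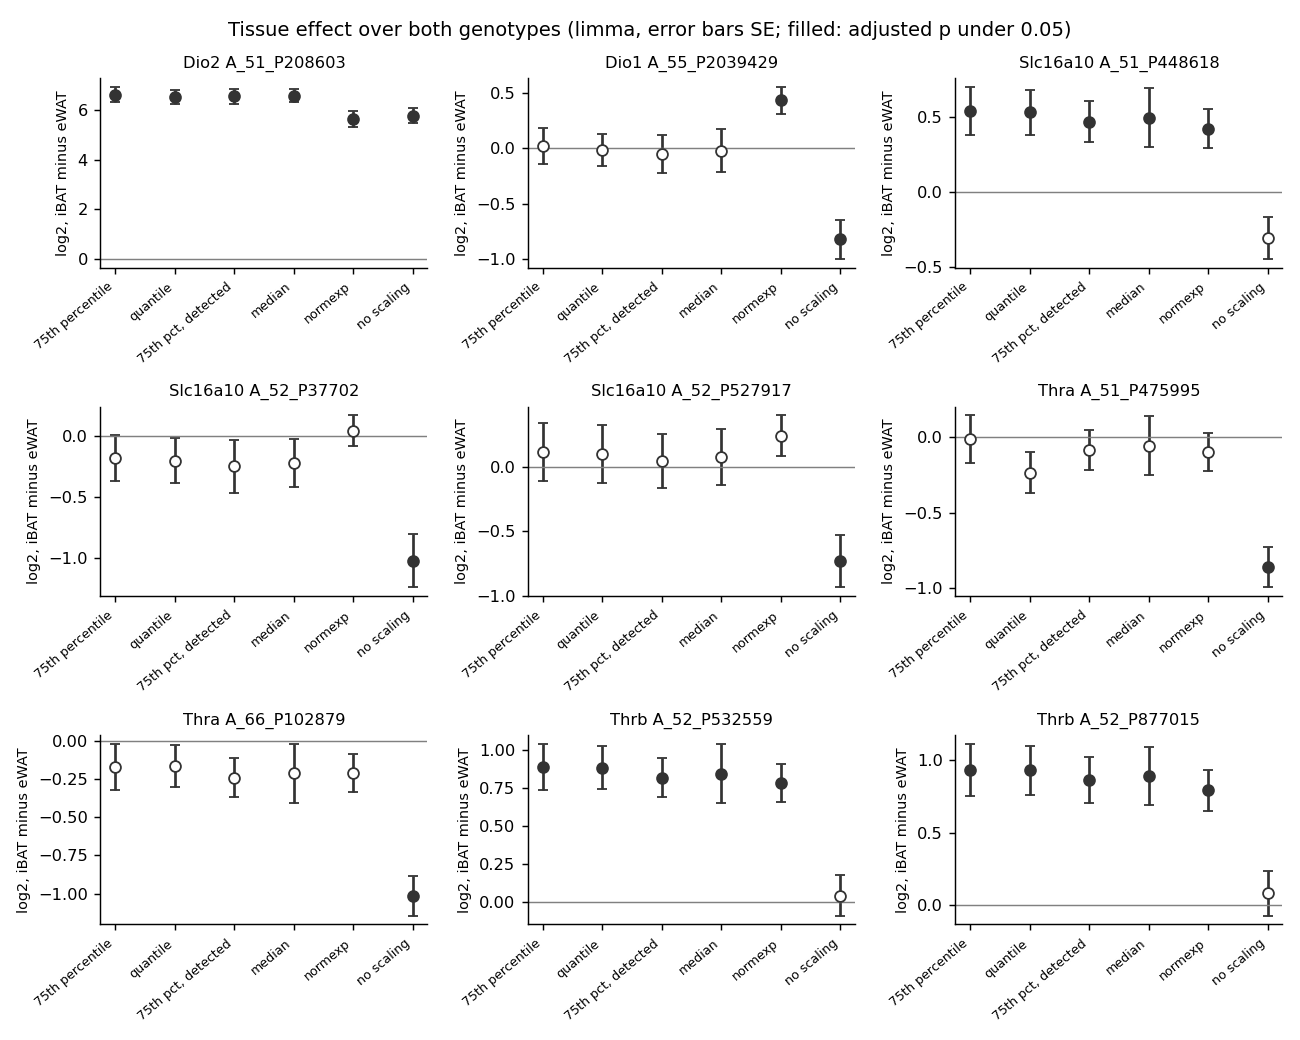
Tissue effect over both genotypes (y axis, log2, iBAT minus eWAT, limma estimate with SE) of the 9 member probes tested, under 6 ways of making the arrays comparable (x axis). Filled circles passed an adjusted p of 0.05. The Dio2 effect stayed above 5 in all of them, while without scaling the Thrb probes fell to 0.041 and 0.084 and the Thra probes to -0.86 and -1.01.

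The genes whose patterns lay nearest to the other members lay within the scanner's error of them, so their order carries no information. They were Trib2, Nvl and AK156275 for Dio1, Clec1b and Sqstm1 for Thra, Cdh8 and Mc5r for Thrb, and Arl8b and Crebzf for Slc16a10, besides 1 probe with no gene symbol each for Thra, Thrb and Slc16a10. Their distances were between 0.0086 and 0.053.

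The rest of the pathway was read through 7 lists of genes, described by counts and medians. Among 10 genes of thyroid hormone transport and binding, 7 were measured in both tissues and none differed 2-fold between genotypes, with medians of -0.11 in iBAT and -0.08 in eWAT beside -0.066 and 0.015 for all genes.

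Between the tissues, 2 of the 7 were at least 2-fold higher in iBAT in both genotypes and 2 lower, beside 10.8% and 10.4% of all genes. Among the higher ones was Slc7a5, the LAT1 carrier of amino acids and thyroid hormones, at 2.0 in WT and 1.25 in ASK1KO mice (log2 differences). The lower ones were Slc7a8, the LAT2 carrier, at -1.71 and -2.05 and Crym, a cytosolic T3-binding protein, at -2.86 and -2.31. Ttr, the plasma carrier transthyretin, read 10.1, 44.8, 829 and 4.43 on the arrays in the order given above. It was well above background only in ASK1KO iBAT and in WT eWAT. It was at least 2.18-fold higher in ASK1KO iBAT than in WT iBAT. In eWAT it was at least 37.7-fold lower in ASK1KO mice, beside the hepatocyte markers that were lower there.

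None of 17 receptor partners and cofactors differed 2-fold between genotypes, which with 1.85% of all genes in iBAT and 1.15% in eWAT is near the background. In iBAT their median log2 ratio was -0.14, beside -0.066 over all genes, and in eWAT it was 0.06, beside 0.015. With the percentile over detected probes the iBAT medians were -0.039 for the list and 0.037 for all genes. None of 10 genes of deiodinase turnover and selenocysteine insertion and none of 16 other selenoproteins differed 2-fold between genotypes, again near the background, with iBAT medians of -0.17 and -0.12. The first of these 2 lists holds the factors that insert the selenocysteine of Dio2 and the enzymes that add or remove ubiquitin on it. Between the tissues, 2 of the 10 and 3 of the 16 were at least 2-fold higher in iBAT in both genotypes, beside 10.8% of all genes. None was at least 2-fold lower in both. The 16 other selenoproteins had medians below those of all genes, at -0.13 in WT and -0.32 in ASK1KO mice beside 0.12 and 0.026, with 9 and 10 of them below 0. The higher genes of the first list were Sephs2, which makes selenophosphate, at 2.16 and 2.02 and Pstk, the kinase of the selenocysteine tRNA pathway, at 1.72 and 1.36 (log2 differences). Those of the second were Gpx3, the secreted glutathione peroxidase, at 1.51 and 1.91, Txnrd2, the mitochondrial thioredoxin reductase, at 1.62 and 1.35, and Selenoo, a mitochondrial selenoprotein, at 1.5 and 1.29.

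Of 14 genes known to respond to thyroid hormone, 2 were at least 2-fold lower in ASK1KO iBAT, beside 1.02% of all genes, and none was higher. Fasn, the fatty acid synthase, read 21571 in WT and 7757 in ASK1KO iBAT, and 14286 and 20370 in eWAT. Its log2 ratios were -1.54 in iBAT and 0.60 in eWAT, opposite in sign between the tissues, a difference that was not tested. Bcl3, a co-regulator of NF-kappaB, was at -1.32 in iBAT and -0.92 in eWAT. The median of the list was -0.33 in iBAT, below the -0.066 of all genes, and 0.12 in eWAT. With quantile normalization the iBAT medians were -0.20 and -0.025.

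In iBAT 10 of the 14 genes of this list were below 0 and 4 above, but none of the remaining genes reached 2-fold. In eWAT only Ucp1 did, and its ratio was lower than that of Dio2. Thrsp, a lipogenic gene, was at -0.42 in iBAT and 0.11 in eWAT, Klf9, a direct target of the receptors, at 0.21 and 0.32, and Hr, a nuclear corepressor, at 0.01 and -0.09 (log2 ratios). Ucp1 read 343275 in WT and 263161 in ASK1KO iBAT, a log2 ratio of -0.44, and 6603 and 252 in eWAT, a ratio of -4.63. Between the tissues 6 of the 14 were at least 2-fold higher in iBAT in both genotypes, beside 10.8% of all genes. Only 1 was at least 2-fold lower in both, beside 10.4%. The lower one was Cpt1a, the liver form of the carnitine acyltransferase, at -2.55 and -2.28. The 6 were Ucp1, Gpd2, Atp2a1, Ppargc1a, Slc2a4 and Bcl3. The Atp2a1 difference, 6.77 and 7.28, goes beside muscle markers that were above 0 for all 5 measured in WT mice.

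Among 11 adrenergic and cAMP-induced genes 10 were measured in iBAT, 2 of which were at least 2-fold lower in ASK1KO mice, none higher, beside 1.02% of all genes lower. Their median lay at -0.45, against -0.066 over all genes. Nr4a1, an orphan nuclear receptor induced by cAMP, read 44511 in WT iBAT, 8787 in ASK1KO iBAT, 3194 in WT eWAT and 1642 in ASK1KO eWAT. Its log2 ratios were -2.40 in iBAT and -0.87 in eWAT. Its relative Nr4a2 was at -1.81 in iBAT and 0.03 in eWAT. The ratio of Nr4a1 in iBAT was close to the -2.37 of Dio2. The receptors Adrb1 and Adrb3 were at -0.97 and -0.45 in iBAT, short of 2-fold. In eWAT 1 of 10 was 2-fold lower, beside 0.865% of all genes. This was Ucp1, which stands in both of these lists. Between the tissues 6 of the 10 were at least 2-fold higher in iBAT in both genotypes, beside 10.8% of all genes, as Nr4a1 was at 4.72 in WT and 3.19 in ASK1KO mice, Nr4a2 at 4.59 and 2.76 and Adrb1 at 2.26 and 1.37 (log2 differences). Adrb3, the main beta-receptor of adipocytes, was the only one at least 2-fold lower in both genotypes, beside 10.4% of all genes. It was at -1.83 and -2.35.

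**Figure D5:**
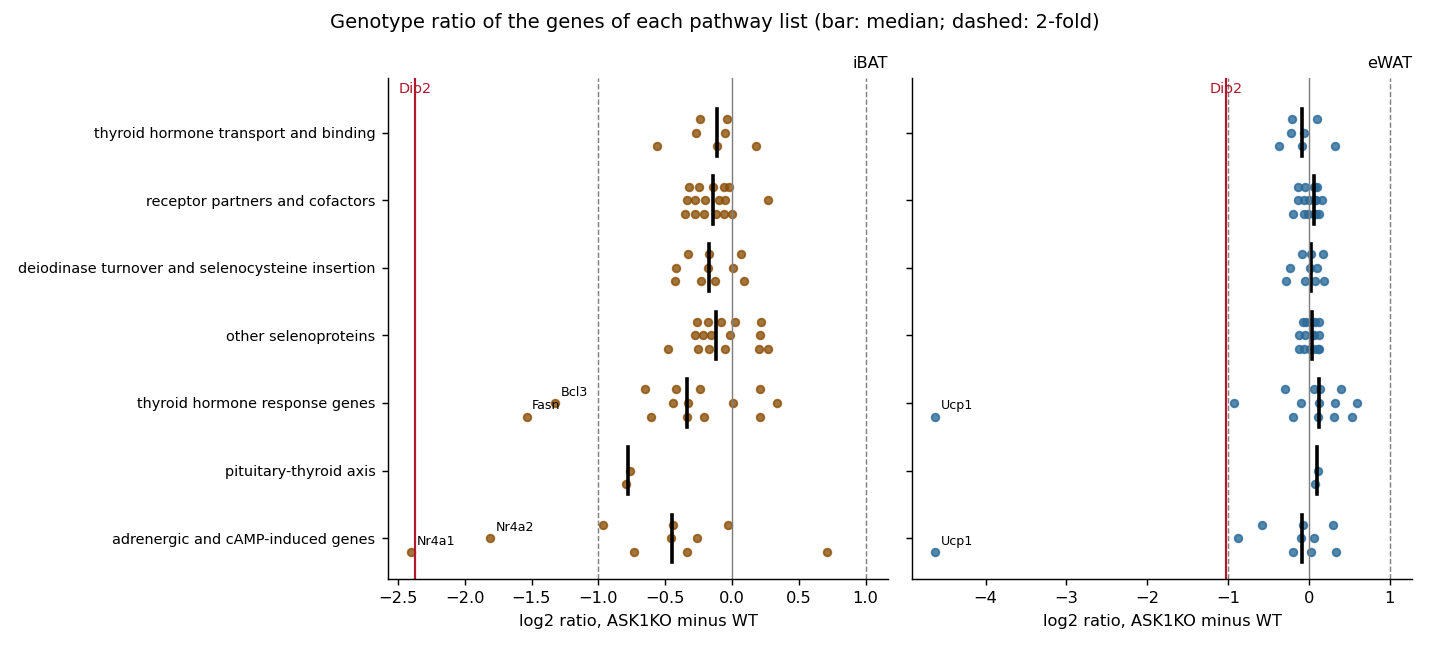
Log2 ratio, ASK1KO minus WT, of the genes of the 7 pathway lists in iBAT (left) and eWAT (right), with bars at the medians, dashed lines at 2-fold and a red line at Dio2. Among the genes measured on both arrays of a tissue, those beyond 2-fold in iBAT are Fasn, Bcl3, Nr4a1 and Nr4a2, and in eWAT Ucp1 alone, while Dio2 lies at -2.37 and -1.02.

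Of 10 genes of the pituitary-thyroid axis, only Tshr and Duox2 were well above background on any array. Tg, which encodes thyroglobulin and marks thyroid follicular cells, was on none. Tshr, the thyrotropin receptor, which adipocytes also make, read 181 in WT iBAT, 109 in ASK1KO iBAT, 4009 in WT eWAT and 3851 in ASK1KO eWAT. It was lower in iBAT than in eWAT by log2 differences of -3.61 in WT and -4.37 in ASK1KO mice. Between genotypes it was at -0.79 in iBAT and 0.11 in eWAT.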

How the data were processed

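Arrays were assigned from the sample labels. The authors deposited scanner output (Agilent Feature Extraction 10.7.3.1, per the file headers) whose processed signal is an intensity with background removed and no scaling between arrays. Their series table is a signal, equal to it divided by 1 constant per array that sets the median to 1. Probe positions are those of the files (mm9), and exons were not assigned.

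Control and outlier spots were left out, log2 values were averaged per probe, and scaled by subtracting the 75th percentile of each array. A probe counted as measured where most of its spots were well above background. A gene is the mean over its probes measured on both arrays. Genes at least 2-fold apart were counted. Against a dim probe only a bound is given, set by the dimmest level still well above background on that array, or by the probe's own if higher. Genotype and tissue were fitted together with limma 3.58.1 over 27613 probes measured on all 4 arrays (1 residual degree of freedom, Benjamini-Hochberg). A run on simulated data, with equal spread and no difference between tissues in the genotype effect, checked the effect sizes. It does not bear on the p-values given here. Named list genes are those 2-fold apart between genotypes or, in both genotypes, between tissues, plus Thrsp, Klf9, Hr, Ucp1 and Tshr, and some genes are not reported here. Alb, Ahsg, Ambp, Elovl3, Cidea, Duox2, Ttr and Tg were added after their values were seen. The members and lists were chosen with earlier results of these data known. Alternatives were normexp (offset 50), quantile normalization, no scaling, the percentile over detected probes, median centring, the series table, other filters, the brightest probe, a 1.5-fold threshold, and for limma a variance trend, gene means and, chosen after seeing the data, no scaling, the percentile over detected probes and median centring. Promoters are RefSeq sequences. R 4.3.3 and Python 3.11.15 were used, with matplotlib 3.10.9, pandas 2.3.3 and numpy 2.4.6.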

Additional observations from a re-analysis of the deposited data

How the results depend on the processing

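Leaving out an array would leave the fit no residual degree of freedom and was not run. No paired analysis was possible because each condition has 1 array and the labels carry no replicate numbers. The precision of dim probes is limited by signal over background.

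The Dio2 ratio in iBAT stayed beyond 2-fold under every setting tried. With normexp, Dio2 was at -0.56 between genotypes in eWAT, and at 6.51 and 4.81 between tissues in WT and ASK1KO mice. Without scaling the tissue values were 6.4 and 5.20. The genotype effect on Dio2 was -1.73 with median centring (limma, adjusted p = 0.00223). Probes called for genotype numbered 0 in the main fit, 11 with normexp, 2 with a variance trend and 139 with median centring. Of the genes at least 2-fold apart there were 266 in iBAT, against 106 with normexp, 1127 with no filter and 1262 at 1.5-fold. In eWAT there were 177, against 60 with normexp, 1036 with no filter, 114 with probes measured on all 4 arrays and 622 at 1.5-fold. The split of higher to lower genes in iBAT was 120 to 146, against 170 to 105 with the percentile over detected probes, 88 to 190 with the series table and 90 to 186 after median centring. Without scaling the tissue effect turned to -0.83 for Dio1 and to -0.31 and -0.73 for Slc16a10. With no filter the tissue median in ASK1KO mice turned from -1.70 to 0.57 for the pituitary-thyroid axis and to 0.59 for thyroid follicular markers. With a filter of 1 array, Thrb A_52_P877015 (adjusted p = 0.0511) and Slc16a10 A_51_P448618 (adjusted p = 0.0985) no longer passed for tissue in limma, and with normexp Dio1 did, at 0.43 (adjusted p = 0.0128). The cause of these changes was not tested, apart from the number of probes that the filters left.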

Other observations

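A pair of genes next to members were read after their values were seen. Dio3os, the transcript beside Dio3, has probes 3812 bases from the Dio3 probe on mm9. They read 12.7 and 6.85 in WT iBAT and 18.1 and 13.6 in ASK1KO iBAT, not well above background. In eWAT they read 285 and 185 in WT and 269 and 184 in ASK1KO mice. Dio3os was at least 7.65-fold higher in eWAT in WT and at least 8.69-fold higher in ASK1KO mice at the first probe, and at least 4.96-fold and 6.24-fold higher at the second. Like Dio3 it was therefore detected in eWAT and not in iBAT.

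Nr1d1, which encodes the clock repressor REV-ERBα, overlaps Thra on the opposite strand by 1075 bases in GRCm38.p6. It read 632 in WT iBAT, 1280 in ASK1KO iBAT, 1756 in WT eWAT and 2393 in ASK1KO eWAT. Its log2 ratio between genotypes was 0.96 in iBAT and 0.53 in eWAT, while the Thra probes lay between -0.18 and 0.13.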
